A study of Arabidopsis thaliana with 4 samples.

Results

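The mitochondrial genome of Arabidopsis thaliana carries, beside the named genes of the respiratory chain, ribosome and cytochrome c maturation, a large set of open reading frames and a set of tRNA genes. The group described here holds all mitochondrial gene models of the deposited tables other than 38 named genes and 3 rRNA models, which left 105 of 146 mitochondrial models, among 33602 models in all. The files give each model an ID and a length and no name. By length, 85 members measured 111 to 948 bases and are called reading frames below, since every one of these lengths is a multiple of 3. The other 20 measured 62 to 97 bases, close to the size of a tRNA gene. All values are raw read counts per model, or CPM, which are counts scaled to a common library size.

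Plant mitochondrial genomes are large, recombine, and take up stretches of plastid and nuclear DNA, so many of their reading frames are chimeras or fragments of known genes, and few have a known product. Some such frames, when transcribed next to a respiratory gene, cause cytoplasmic male sterility in crop plants. Mitochondrial DNA also moves into the nucleus, and in Arabidopsis a long, nearly exact copy of the mitochondrial genome lies near the centromere of chromosome 2. Plant mitochondria encode only part of the tRNAs they need and import the rest from the cytosol.

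RNA came from aerial organs of soil-grown plants at Boyes stage 1.09, kept at 18 to 21 °C in light of at most 90 µE and given no treatment. The knock-out line SM_3_29659, called otp90, was compared with the wild type Col-0, with 2 rRNA-depleted, stranded, single-end libraries of 230 bp sizing for each genotype. OTP names refer to organelle transcript processing. Counts of the gene disrupted in otp90 were not analysed here, so they gave no check of the labels. No label tells if both libraries of one genotype had their own plants, and p-values therefore reflect only the library-to-library spread, part of which may be technical. Leaving out rRNA models, otp90 replicate 1 held 1374590 counts and replicate 2 held 1750669. Col-0 replicate 1 held 2503502 counts and replicate 2 held 1723267. Reads with tied best and second alignments had been removed before counting, and these made up 79.9% to 87.0% of the mapped reads. Of 6 leaf genes checked all had counts, and their summed level was lowest in otp90 replicate 2, at 17597 CPM, against 21989 to 30073 CPM in the other 3 libraries. The summed level of 4 root genes was highest in the same library, at 95.0 CPM, against 23.3 to 33.6 CPM. The 3 seed genes summed to 4.06 to 10.8 CPM and the 3 pollen genes to at most 1.60 CPM.

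Sequences are shown first because, among frames that could be located, those identical to a nuclear copy had no counts. Since reads with tied alignments had been removed, this does not tell whether those frames were transcribed. Some of the located frames that differ from their copy had counts and others did not. The sequences come from the RefSeq mitochondrial sequence of TAIR10.1, which may differ from the mitochondrial sequence of TAIR10 that the authors used. The annotation of TAIR10.1 does not list these IDs on the mitochondrial genome, but it names 36 of them as the closest relative of a nuclear gene or as the source of a nuclear pseudogene. For 24 of the 36, exactly 1 reading frame of the model's length overlapped the mitochondrial match of that nuclear gene, and that frame was taken as the member. For the rest of the 36, no reading frame of that length from ATG to a stop shared enough of the match to be taken. ATMG01100 lies at positions 65469 to 65786 on the minus strand and is the same, base for base, as its copy at chr2:3249077-3249394. ATMG01030, at positions 284614 to 284934 on the plus strand, differs from its copy at chr2:3266578-3266898 by the single substitution C140T. ATMG01090, at positions 269862 to 270650 on the minus strand, differs from its copy at chr2:3250757-3251545 by C260A and A524C. ATMG01280, at positions 83519 to 84394 on the minus strand, differs from chr2:3346951-3347826 at 2 bases. None of these 4 frames overlaps an annotated mitochondrial gene. Substitutions give the mitochondrial base, the position counted from 1 at the first base of the frame, and the nuclear base. The first 300 bases of each frame are printed, with capitals at the bases that differ from the nuclear copy.
ATMG01100: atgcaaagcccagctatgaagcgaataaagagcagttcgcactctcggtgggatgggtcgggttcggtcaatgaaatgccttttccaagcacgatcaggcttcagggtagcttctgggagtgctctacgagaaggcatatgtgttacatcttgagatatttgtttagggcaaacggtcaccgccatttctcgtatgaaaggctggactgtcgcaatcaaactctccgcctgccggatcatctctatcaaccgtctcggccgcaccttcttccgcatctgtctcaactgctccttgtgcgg
ATMG01030: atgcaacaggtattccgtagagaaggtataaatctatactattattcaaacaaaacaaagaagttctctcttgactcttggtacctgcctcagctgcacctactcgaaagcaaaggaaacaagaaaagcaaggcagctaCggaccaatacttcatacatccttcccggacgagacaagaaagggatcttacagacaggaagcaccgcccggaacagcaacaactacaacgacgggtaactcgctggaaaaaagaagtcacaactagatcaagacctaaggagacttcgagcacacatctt
ATMG01090: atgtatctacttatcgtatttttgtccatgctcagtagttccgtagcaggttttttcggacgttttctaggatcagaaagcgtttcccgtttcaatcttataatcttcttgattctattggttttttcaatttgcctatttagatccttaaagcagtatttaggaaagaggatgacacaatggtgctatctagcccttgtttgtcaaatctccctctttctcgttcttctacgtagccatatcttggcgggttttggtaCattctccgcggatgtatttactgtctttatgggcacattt
ATMG01280: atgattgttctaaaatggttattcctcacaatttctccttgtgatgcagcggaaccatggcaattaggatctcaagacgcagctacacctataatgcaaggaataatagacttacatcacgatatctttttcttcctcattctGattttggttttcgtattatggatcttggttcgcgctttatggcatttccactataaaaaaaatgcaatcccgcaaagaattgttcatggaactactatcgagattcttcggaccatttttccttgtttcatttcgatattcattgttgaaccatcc

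ATMG00280, the member with the highest level, is related to the nuclear gene AT2G07732, and the annotation names the match as the catalytic domain of the large subunit of Rubisco. No reading frame of the model's 333 bases that starts with ATG lay in the matched stretch, so the stretch itself is shown. It covers 351 bases, positions 164947 to 165297 on the plus strand, and differs from the nuclear gene by G226C, counted from 1 at the first base of the stretch. It also matches the plastid gene rbcL, which encodes the large subunit of Rubisco, with 307 identical bases in 318 aligned (96.5%). The first 300 bases are printed, with the base that differs from the nuclear gene in capitals.
ATMG00280: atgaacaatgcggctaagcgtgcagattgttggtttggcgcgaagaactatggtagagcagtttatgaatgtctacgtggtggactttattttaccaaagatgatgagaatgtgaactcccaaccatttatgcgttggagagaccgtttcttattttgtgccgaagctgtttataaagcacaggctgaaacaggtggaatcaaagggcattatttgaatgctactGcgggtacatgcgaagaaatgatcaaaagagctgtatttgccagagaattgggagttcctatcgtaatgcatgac

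Most tRNA-length members cannot be paired with tRNA genes, since the annotation gives those genes other tags and many share a length. ATMG00390 is the only member of 83 bases, and the tyrosine tRNA gene at positions 44462 to 44544 the only such gene. That pair rests on length alone. Members of 62, 67, 76, 85 and 97 bases have the length of no annotated mitochondrial tRNA gene. Of the 22 annotated mitochondrial tRNA genes, of 71 to 88 bases, 19 have an exact copy in the nuclear chromosomes, and 6 have an exact second copy within the mitochondrial genome. In all, 21 of 22 have an exact copy at some other place in TAIR10.1, and none has one in the plastid genome. The histidine tRNA gene is the one with no exact copy. It is printed with the asparagine and tryptophan genes, which have 1 nuclear copy each, and the anticodon is in capitals.
trnH: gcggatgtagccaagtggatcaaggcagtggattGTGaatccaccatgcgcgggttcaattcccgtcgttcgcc
trnN: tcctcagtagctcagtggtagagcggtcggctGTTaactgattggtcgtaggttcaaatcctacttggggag
trnW: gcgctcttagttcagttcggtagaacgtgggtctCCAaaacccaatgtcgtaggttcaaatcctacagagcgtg

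Most members were not detected. In the 4 libraries together 64 of 105 members (61.0%) had 0 counts, 48 of the 85 reading frames and 16 of the 20 tRNA-length models. Among the 38 named mitochondrial genes, 9 had 0 counts. For a single library a count of 0 allows up to 3 counts, or 1.20 to 2.44 CPM depending on the library, a limit that covers counting error only and not reads removed for tied alignments. The 41 detected members held 8073 counts, of which 19.1% fell on 1 reading frame, 50.1% on 3 and 81.6% on 6. Of the 41, 27 had counts too low to be tested, from 1 to 37 over the 4 libraries.

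Every located frame with an identical nuclear copy was without counts. Of the 24 located frames, 15 are identical to their nuclear copy over their whole length of 306 to 942 bases, and all 15 had 0 counts in every library. They include ATMG01100 and ATMG00590, which is annotated as a match to cytochrome b proteins and is the longest of the identical frames at 942 bases. Of the other 9 frames, which differ by at least 1 base, 4 had counts and 5 did not. For comparison, 25 of the 36 members with an annotated nuclear relative had 0 counts. So did 23 of the 49 reading frames without one, which were not located or compared with nuclear copies. ATMG01090 (2 differing bases), annotated as related to subunit 9 of ATP synthase, had 46 and 30 counts in otp90, replicate 1 first, against 66 and 22 in Col-0. ATMG01280 (2 differing bases), annotated as similar to subunit II of cytochrome c oxidase, had 15 and 19 counts in otp90 and 10 and 15 in Col-0. Not every frame that differs from its nuclear copy had counts. ATMG01030, with 1 differing base, had 0 counts. ATMG01110, annotated as related to a mitovirus RNA polymerase, also had 0 counts. Its 14 differences, including gaps, all lie in its first 24 bases, and the match of 732 bases beyond them is identical. ATMG00200, with 1 differing base, had 5 counts in all, and ATMG01220 had 16. The 53 differences of ATMG01220, including gaps, all lie in its first 103 bases. Its match to the nuclear relative covers only 246 bases, of which 244 are identical. Among the named genes 9 could be located, all identical to a nuclear copy, and 7 of them had 0 counts. The exceptions were atp1 (ATMG01190), with 132 counts, and nad3 (ATMG00990), with 21.

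**Figure D1:**
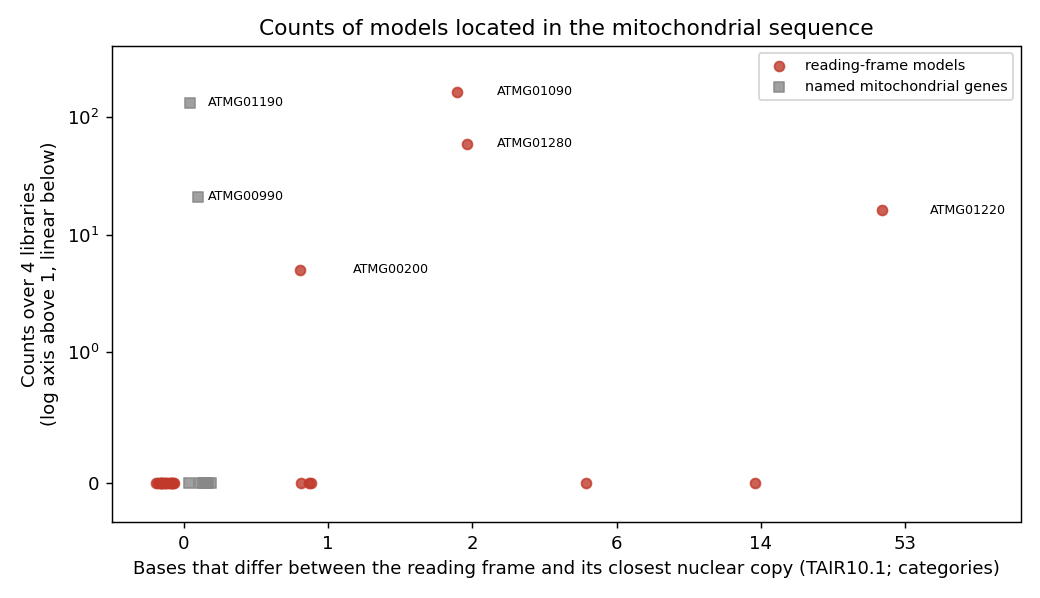
Total counts over 4 libraries (vertical axis, logarithmic above 1) of the models located in the mitochondrial sequence, by the number of bases that differ from the closest nuclear copy (horizontal axis, shown as categories, points shifted sideways), with red circles for members and grey squares for named mitochondrial genes. All 15 reading frames identical to a nuclear copy sit at 0, and the reading frames with counts, 5 to 164, differ by at least 1 base. Of the 9 named genes, all identical to a nuclear copy, 7 sit at 0, and ATMG01190 and ATMG00990 have 132 and 21 counts. For ATMG01110 and ATMG01220 the differing bases all lie at the start of the frame.

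Over the whole mitochondrial sequence, 67.6% of windows of 100 bases occur without a mismatch in the nuclear chromosomes, 7.51% recur within the mitochondrial genome and 0.120% occur in the plastid genome. With windows of 50 and 150 bases the nuclear share was 70.6% and 65.1%. Among the 24 located frames, 16 had no window of 100 bases that was without an exact copy elsewhere, and all 16 had 0 counts. None of the 9 located named genes had such a window either, and 7 of them had 0 counts. The exceptions, atp1 (ATMG01190, 0 of 1425 windows) and nad3 (ATMG00990, 0 of 261), had 132 and 21 counts. In ATMG01090, 159 of 690 windows were without a copy, in ATMG01280 122 of 777, and in the matched stretch of ATMG00280 71 of 252. ATMG00200, with 5 counts, had 77 such windows of 225, and ATMG01220, with 16 counts, had 103 of 243. Frames with 0 counts had such windows as well. They were 100 of 222 in ATMG01030, 100 of 381 in ATMG01050, 53 of 519 in ATMG01260 and 24 of 657 in ATMG01110. No source used here gives the read length, and these windows do not stand for the reads themselves.

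The nuclear relatives were counted in the same tables. The 36 members had 37 nuclear relatives, 36 of them within chr2:3240838-3502128. Over the aligned part of their longest annotated segment, the relatives were 99.0% to 100% identical to the mitochondrial sequence. That part can be shorter than the segment, as in AT2G07798, with a match of 246 bases for a segment of 278. In 16 pairs the nuclear and the mitochondrial model have the same length, and in 12 of these both were at 0. The exceptions include ATMG01090, with 164 counts in all against 18 for AT2G07777, and ATMG01280, with 59 against 1 for AT2G07695. In another 16 pairs the nuclear model is the longer, and there 15 of 16 nuclear models had counts although 11 of the 16 mitochondrial models had none. ATMG00500, a frame of 426 bases, had 0 counts, while AT2G07708, whose model of 1183 bases includes an identical stretch of 426 bases, had 304 and 200 counts in otp90 and 640 and 234 in Col-0. ATMG00470 had 0 counts and its relative AT2G07706, of 2080 bases, had 658 and 278 in otp90 and 353 and 697 in Col-0. The longest coding segment of AT2G07706, of 233 bases, is identical to the mitochondrial sequence, and how many of its counts fell there is not known. For such models the tables do not tell whether the RNA came from the mitochondrion or from the nucleus.

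**Figure D2:**
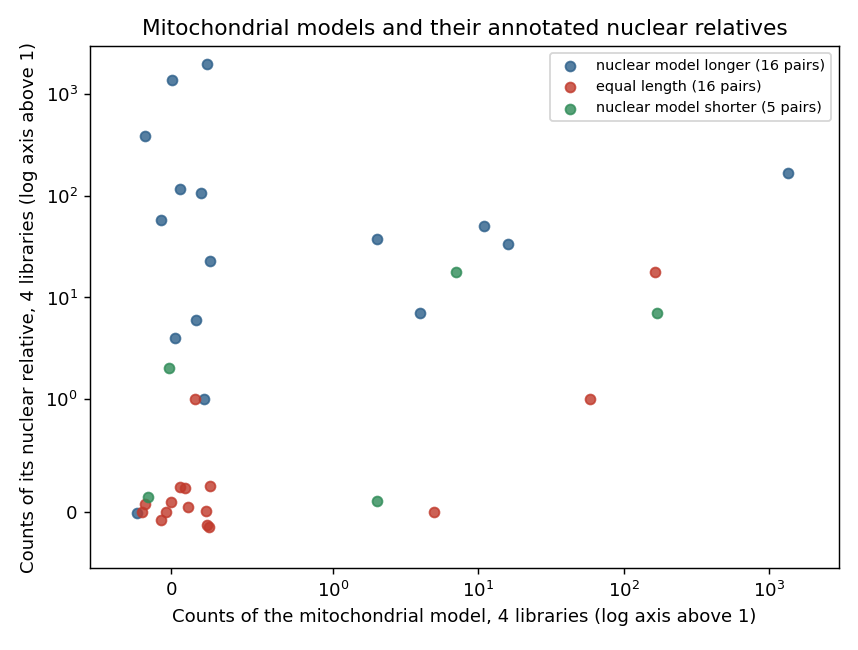
Counts over 4 libraries of each member (horizontal) and of its annotated nuclear relative (vertical), both axes logarithmic above 1, with points at 0 scattered around 0, and colours for the relative lengths of the models. Of 16 pairs of equal length 12 sit at 0 on both axes, while 15 of the 16 longer nuclear models have counts.

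Only 14 members had enough counts to be tested, and all 14 are reading frames, with 97.5% of the members' counts. They include 4 of the 36 members with an annotated nuclear relative and 10 of the 49 reading frames without one. Because the filter keeps models by their counts, these 14 do not stand for all members. Per kilobase of model, their mean level over the 4 libraries ran from 9.91 to 565 CPM, with a median of 112, against a median of 10.3 over all 11938 genes tested. The filter takes no account of length, so a short model needs a higher level per kilobase to be tested. Over all 85 reading frames the median was 0, and over the 38 named mitochondrial genes, tested or not, it was 25.6. The named mitochondrial gene with the highest measured level, ATMG01080, reached 1059 CPM per kilobase.

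ATMG00280, the model of 333 bases related to a Rubisco-like nuclear gene, was the highest member, at 729 (replicate 1) and 619 CPM per kilobase (replicate 2) in otp90, against 543 and 368 in Col-0. Both otp90 libraries lay above both Col-0 libraries. The plastid model ATCG00490, the one plastid model with the 1440 bases of rbcL, had 170168 and 218460 counts in otp90 and 333014 and 144122 in Col-0. Its level was 138129 and 121323 CPM in otp90 and 133501 and 76816 CPM in Col-0. For each 1000 of its counts ATMG00280 had 1.76 and 1.70 counts in otp90 and 1.35 and 1.60 in Col-0. By this ratio, too, both otp90 libraries lay above both Col-0 libraries. Whether rbcL reads take part in the member's count was not tested.

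ATMG00360, with a model of 111 bases the shortest of the reading frames, was at 344 and 1176 CPM per kilobase in the otp90 libraries, in the order of their numbers, and at 202 and 471 in those of Col-0. Both libraries numbered 2 lay above both numbered 1, and the mean of 548 ± 433 CPM per kilobase (SD, n = 4) overlapped that of ATMG00280, 565 ± 152. The mitochondrial rRNA model of 118 bases had the same order of numbers, with 2421 and 7662 CPM in otp90 and 2243 and 6222 CPM in Col-0. Of the 101 tested models under 150 bases, 6.93% were higher in both libraries numbered 2, against 21% of all genes tested. The part of rRNA or of model length in this order was not tested, and no source used here names the product of ATMG00360.

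Below these came ATMG00660, a model of 450 bases at 359 ± 151 CPM per kilobase, ATMG01130, of 321 bases at 292 ± 130, and ATMG00690, of 723 bases at 283 ± 48.4 (SD, n = 4 each). The ranges over libraries of these 3 overlapped each other. ATMG00660 was at 561 and 232 CPM per kilobase in otp90 and 388 and 255 in Col-0. ATMG01130 was at 382 and 161 in otp90 and 423 and 203 in Col-0, on the same scale. In both, the libraries numbered 1 were the high ones. ATMG00690 had the most counts of any member, 235 and 415 in otp90 and 589 and 304 in Col-0, and its level stayed between 224 and 327 CPM per kilobase with the genotypes overlapping. ATMG01200, a model of 885 bases, followed at 251 and 87.9 CPM per kilobase in otp90 and 183 and 89.7 in Col-0, a mean of 153 ± 79.1 (SD, n = 4). ATMG00670, of 828 bases, was at 243 and 84.5 in otp90 and 151 and 121 in Col-0, on the same scale, a mean of 150 ± 67.8 (SD, n = 4). Both were again lower in the libraries numbered 2, with the genotypes overlapping. In all, 5 of the 14 tested members (ATMG00660, ATMG01130, ATMG01200, ATMG00670 and ATMG01090) were lower in both libraries numbered 2, a pattern found in 20.5% of all genes tested, and 2 (ATMG00360 and ATMG00040) were higher.

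The other tested members lay lower. ATMG01000 (74.6 ± 4.08 CPM per kilobase) had the steadiest level, between 70.8 and 80.3, and ATMG01060 (68.3 ± 13.4) had an overlapping level. A nuclear pseudogene noted as a relative of ATMG01060 matches the mitochondrial sequence without a difference over 92 bases. ATMG01090 was at 29.2 ± 14.4, ATMG01350 at 24.4 ± 14.4, ATMG00040, the longest member with 948 bases, at 19.6 ± 3.47, ATMG01020 at 17.6 ± 7.94 and ATMG01280 at 9.91 ± 4.06 CPM per kilobase (SD, n = 4 each), and neighbours among these 5 had overlapping ranges over the 4 libraries. Over the whole order of the 14, those ranges did not overlap between ATMG00670 and ATMG01000 or between ATMG01060 and ATMG01090, and for ATMG00690 and ATMG01200 they overlapped although mean ± SD did not. Set among the 38 named mitochondrial genes, 1 named gene was above ATMG00280 per kilobase, 5 were above ATMG00690 and 22 above ATMG01280. These levels divide by the full model length although tied reads had been removed, and 9 of the 38 named genes had 0 counts. How far that removal shaped the order of the models was not tested.

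**Figure D3:**
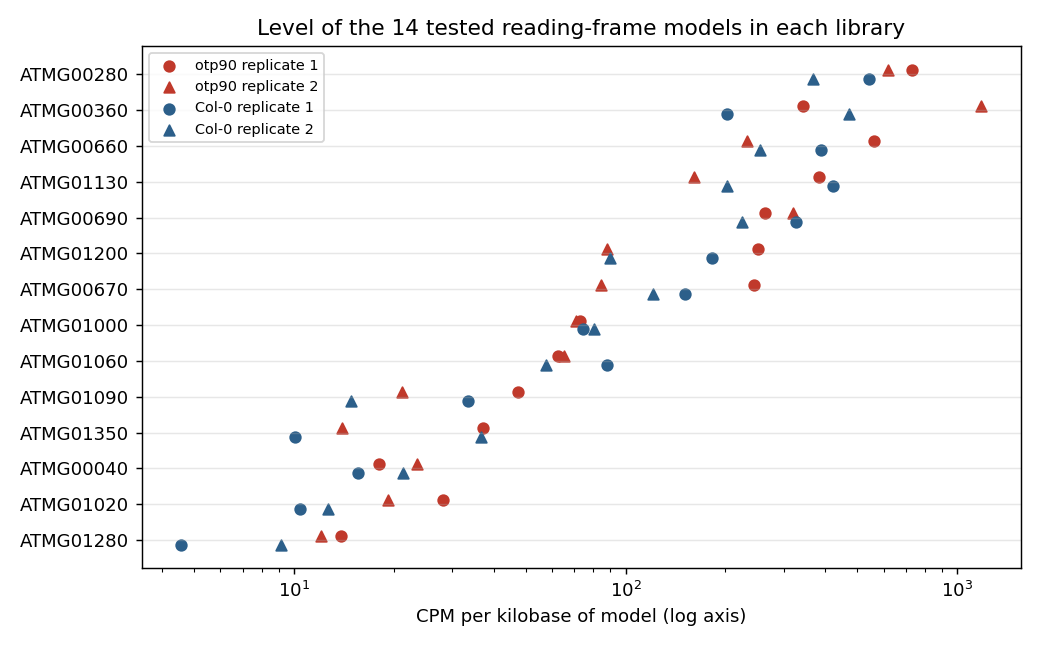
Level of the 14 tested reading frames in CPM per kilobase of model (logarithmic axis) in each library, with red for otp90, blue for Col-0, circles for replicate 1 and triangles for replicate 2. For ATMG00280 both red points lie to the right of both blue points, and for ATMG00360 both triangles lie to the right of both circles.

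Between otp90 and Col-0, no member passed the test. By edgeR's quasi-likelihood test with Benjamini-Hochberg adjustment, 0 of 14 tested members were called at an adjusted p under 0.05, where 0% of all 11938 genes were, and 0 of 14 reached an unadjusted p under 0.05, where 1.41% did. DESeq2 and limma voom also called 0 of 14, with 0 at an unadjusted p under 0.05. Log2 fold changes ran from -0.21 to 1.19, with 11 members higher in otp90, 3 lower and a median of 0.28, against a median of -0.0097 and 49.2% higher over all genes tested. The 22 tested named genes had a median of 0.09, with 15 higher and 7 lower. The members share libraries, so their common sign is 1 observation on 4 libraries. Within replicate number 1 the median log2 ratio of otp90 to Col-0 was 0.48, and within number 2 it was 0.16. With otp90 replicate 1 left out the median was -0.12, and with otp90 replicate 2 left out it was 0.71.

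ATMG00360 had the smallest p of the members. It was at 38.2 and 131 CPM in otp90 and 22.4 and 52.2 CPM in Col-0, which overlap, and its log2 fold change was 1.19 (SE 0.67, edgeR adjusted p = 0.9998). Within numbers 1 and 2 its log2 ratio was 0.77 and 1.32. Without otp90 replicate 2, the library with the most root and least leaf marker RNA, the log2 fold change was 0.067, and without otp90 replicate 1, Col-0 replicate 1 and Col-0 replicate 2 it was 1.83, 0.72 and 1.93. The part of tissue makeup in this value was not tested. ATMG01020, a model of 462 bases, was at 13.0 and 8.89 CPM in otp90 and 4.81 and 5.86 CPM in Col-0, from 11 to 16 counts a library, and its log2 fold change was 1.02 (SE 0.69). ATMG01280 was at 12.2 and 10.6 CPM in otp90 and 4.01 and 7.99 CPM in Col-0, and its log2 fold change was 0.93 (SE 0.70). ATMG00280 was at 243 and 206 CPM in otp90 and 181 and 123 CPM in Col-0, and its log2 fold change was 0.56 (SE 0.45). In ATMG01020, ATMG01280 and ATMG00280 both otp90 libraries lay above both Col-0 libraries. Such a separation was found in 3 of the 14, against 12.4% of all genes tested, and the opposite one in ATMG01000 alone, against 13.5%. In either direction, then, 4 of 14 did not overlap, where 25.9% of all genes did not. ATMG01000, at 25.2 and 24.4 CPM in otp90 and 25.7 and 27.7 CPM in Col-0, showed a log2 fold change of -0.11 (SE 0.46).

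The other 9 tested members had overlapping genotypes. ATMG01090 had a log2 fold change of 0.48 (SE 0.62), ATMG01200 of 0.31 (SE 0.61), ATMG00660 of 0.30 (SE 0.54), ATMG00670 of 0.27 (SE 0.56) and ATMG00040 of 0.17 (SE 0.52). Smaller values were found for ATMG01350 (0.12, SE 0.82), ATMG00690 (0.08, SE 0.45), ATMG01060 (-0.19, SE 0.50) and ATMG01130 (-0.21, SE 0.58). With each library left out in turn, the sign changed in 9 members and held in ATMG00360, ATMG01020, ATMG01280, ATMG00280 and ATMG01000, though not the size. With Col-0 replicate 1 or 2 left out, ATMG00280 had a log2 fold change of 0.89 or 0.32, and ATMG01280 of 0.52 or 1.50. Over the 4 omissions, ATMG01020 ranged from 0.76 to 1.30. ATMG01000 ranged from -0.14 to -0.038.

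**Figure D4:**
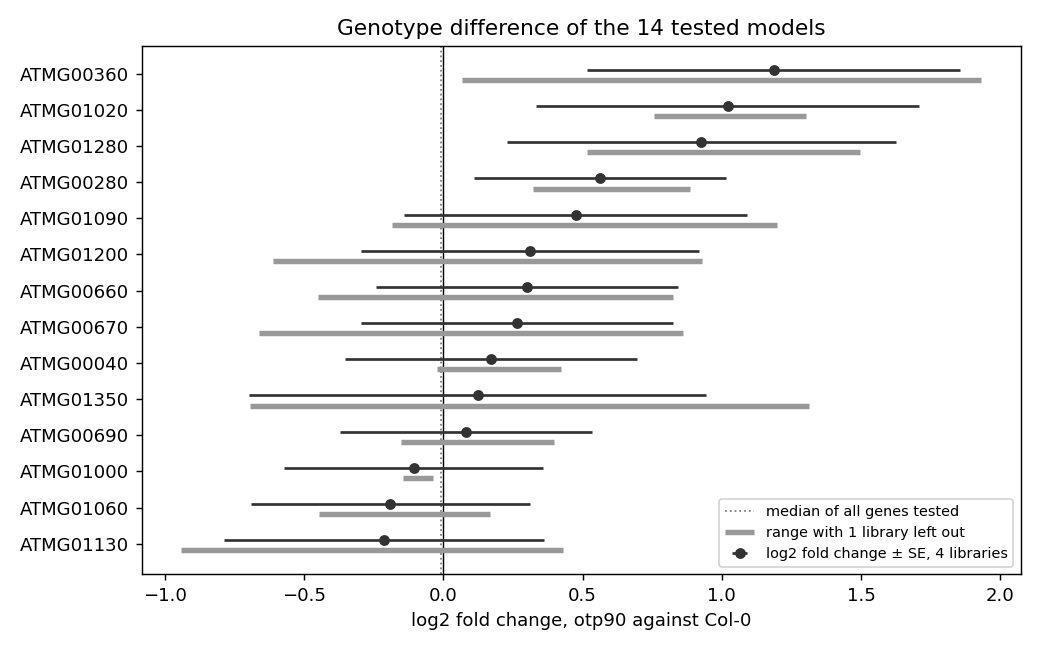
Log2 fold change of otp90 against Col-0 for the 14 tested reading frames (points, with SE as bars), in grey the range of the value when 1 library at a time is left out, and as a dotted line the median of all genes tested. The values run from -0.21 to 1.19, and for 9 members the grey range crosses 0.

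As a class, the members took 0.129% (replicate 1) and 0.103% (replicate 2) of the counts outside rRNA in otp90, with 95% Wilson intervals of 0.123 to 0.135 and 0.0986 to 0.108. In Col-0 replicates 1 and 2 they took 0.116% and 0.0923%, with intervals of 0.112 to 0.120 and 0.0878 to 0.0969. Intervals here and below cover counting error only. The genotype means were 0.116% ± 0.0185 and 0.104% ± 0.0166 (SD, n = 2 each), which differed by less than the spread between replicates (exact two-sided permutation p = 0.667, where 2 against 2 libraries cannot go below 0.333). Without otp90 replicate 1 the difference turned from 0.0123 to -0.00079 percentage points. Of the non-rRNA mitochondrial counts alone, the members took 25.1% and 25.5% in otp90 and 22.2% and 25.5% in Col-0. The means of 25.3% ± 0.284 and 23.8% ± 2.31 (SD, n = 2 each) gave an exact two-sided permutation p of 0.667, and Col-0 replicate 1 alone lay below the other 3 libraries. Without that library the difference was -0.177 percentage points in place of 1.46. In these bulk samples, fewer mitochondria or cells of a type and less RNA in each cannot be told apart.

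The tRNA-length models were almost empty. Together they had 2 counts in otp90 replicate 1, 8 in replicate 2, 10 in Col-0 replicate 1 and 13 in its replicate 2, all on 4 of the 20 models. ATMG00800 (72 bases) had 0 and 5 counts in otp90 and 0 and 4 in Col-0, so its counts came from the libraries numbered 2. ATMG00790 (76 bases) had 1 and 0 counts in otp90 and 2 and 6 in Col-0. ATMG01070 (74 bases) had 0 and 2 counts in otp90 and 4 and 3 in Col-0, and ATMG01160 (97 bases, the longest of the class) had 1 and 1 in otp90 and 4 and 0 in Col-0. ATMG00380, the shortest at 62 bases, had none. No model of this class had enough counts to be tested, and their share of counts outside rRNA, a mean of 0.000301% ± 0.00022 for otp90 against 0.000577% ± 0.000251 for Col-0 (SD, n = 2 each), gave an exact two-sided permutation p of 0.667, in a design that cannot go below 0.333. The difference of -0.000276 percentage points was larger than either SD, and it rests on 33 counts. With otp90 replicate 1 or 2 left out it was -0.00012 or -0.000431, and with Col-0 replicate 1 or 2 left out it was -0.000453 or -9.8e-05. The parts that library sizing and removal of tied reads had in these low counts were not tested.

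Among the 27 detected members too low to be tested, the largest total was 37, in ATMG00710, a frame of 363 bases. It had 2 and 0 counts in otp90 and 4 and 31 in Col-0, so that Col-0 replicate 2 alone held most of them, and it is named because of that value. ATMG01240 had 4 and 4 counts in otp90 and 3 and 13 in Col-0, again with Col-0 replicate 2 the highest. Counts in 1 genotype alone were found in 9 members, 3 in otp90 and 6 in Col-0, with at most 4 counts each, which the depth does not allow to be read as a difference.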

How the data were processed

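Per the file headers, the authors deposited raw read counts per gene model, made with sam2pkm once reads with equal best and second scores were removed. The submitters' processing notes name TAIR10 as the build. The aligner, read length and strand setting were not given in the sources used here. Overlapping or antisense models may therefore share reads. Each header total equalled the sum of its counts.

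From the counts, 15 rRNA models were left out, genes were kept by filterByExpr (11938) and scaled by TMM, and genotypes were compared by the two-sided quasi-likelihood test of edgeR 4.0.16 in R 4.3.3, without a replicate block, over all genes tested with Benjamini-Hochberg adjustment at 0.05. The script was tested on simulated data. CPM uses TMM-scaled library sizes, and a level per kilobase divides it by the model's length. The standard error came from the log2 fold change and the F statistic. DESeq2 1.42.0, limma 3.58.1 and the other alternatives are described at the end. Shares were compared by exact permutation tests (SciPy 1.17.1). Between replicates, the chi-square of the counts over its degrees of freedom was 14.9 (otp90) and 24.3 (Col-0), beyond sampling noise.

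Nuclear relatives came from the TAIR10.1 annotation, matches to the mitochondrial sequence from BLAST+ 2.17.0, and differing bases from an alignment of each whole frame to its best nuclear match, with gaps counted. A frame was taken as a member if it had the model's length, ran from ATG to a stop and shared with the match at least a fraction of 0.5 of the shorter one. The members, lists and tests were chosen with earlier results of these data known, and the comparison with nuclear copies, rbcL, the rRNA model and short models was added after the counts were seen. The named members are all that were tested, the 10 highest reading frames per kilobase, the 6 tRNA-length models with the most counts (4 had any), and the longest and shortest of each length class. Others, such as the located frames, were chosen after their values were seen.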

Additional observations from a re-analysis of the deposited data

How the results depend on the processing

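No member was called under any alternative run with edgeR (DESeq2 size factors, scaling on nuclear genes, rRNA models kept, no low-count filter, a replicate block, 1 library left out), nor by DESeq2 or limma voom, so the count of calls was 0 in each. At an unadjusted p under 0.05 there were 2 of 41 members without the filter (ATMG00360 and ATMG00710), 1 of 14 with the replicate block (ATMG00360) and 0 to 2 with 1 library left out. With 1 library left out an arm holds 1 library, which is assumed to vary like the pair of the other genotype, so these fits give little ground for or against a call. The median log2 fold change of the 14 was 0.21 to 0.30 under the alternatives that keep all libraries, 0.21 with the replicate block, and from -0.12 to 0.71 with 1 library left out. Single members kept their sign in 98 of 98 values with all libraries, and changed it in 14 of 56 with 1 library left out, where the other 5 members ranged from 0.067 to 1.93 (ATMG00360), 0.76 to 1.30 (ATMG01020), 0.52 to 1.50 (ATMG01280), 0.32 to 0.89 (ATMG00280) and -0.14 to -0.038 (ATMG01000), and those that changed it had ranges of -0.45 to 0.82 in ATMG00660, -0.94 to 0.43 in ATMG01130, -0.15 to 0.40 in ATMG00690, -0.61 to 0.93 in ATMG01200, -0.66 to 0.86 in ATMG00670, -0.45 to 0.17 in ATMG01060, -0.18 to 1.20 in ATMG01090, -0.69 to 1.31 in ATMG01350 and -0.021 to 0.42 in ATMG00040. The member share of non-rRNA counts differed by -0.00079 to 0.0253 percentage points with 1 library left out, and by 0.0291 over nuclear counts. The share of mitochondrial counts differed by -0.177 to 3.09 points with 1 library left out, and by 0.152 with rRNA models kept. The share on tRNA-length models differed by -0.000453 to -9.8e-05 points with 1 library left out. The replicate block, which averages the differences within numbers, leaves all 3 shares as they were. Replicate numbers are not said to pair the samples, and the same-numbered libraries deviated together with a correlation of 0.22 over genes. Windows of 50 and 150 bases were chosen after seeing the data. With 64 members at 0 counts, and with tied reads removed before deposit, the depth leaves most members without a value to compare.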
